A study of Mus musculus with 7 samples.

Results

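The collagen genes are described here in 7 brain tumours of mice: every gene whose symbol reads Col, a number, the letter a and a second number, and nothing more. This rule found 44 of the 37620 genes counted, all of them assigned to 8 structural classes by what is known of their chains. The tumours grew in nude mice, a strain that lacks a thymus and so most T cells, after glioblastoma stem-like cells grown out of subventricular zone neural stem cells had been injected into the brain. There were 4 tumours of the line GSC1, whose cells carry the changes labelled lgT/Ras, and 3 tumours of the line GSC2, whose cells are labelled shp53, Nf1-/- and CDK4. The series calls the tumours independent, with 1 library each. Each set of changes existed in 1 line, so the comparison is between lines and not between single alleles, and host age is not given in the labels.

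Collagens are secreted or membrane-bound proteins in which 3 chains wind into a triple helix. Fibrillar collagens form the tensile fibres of connective tissue, type IV collagen forms the sheet of basement membranes, and other classes link, decorate or anchor these structures. Normal brain tissue holds little fibrillar collagen outside the meninges and vessel walls, while the basement membrane of brain vessels is rich in type IV and type XVIII chains. In gliomas, collagens can come from tumour cells as well as from vessels, mural cells, fibroblasts and other host cells. The counts are from whole tumours, so fewer cells of a kind and less RNA per cell cannot be told apart.

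Of the 44 genes, 39 had reads in every tumour and 36 reached a mean of 1 CPM over the 7 tumours, where CPM is the edgeR unit of reads scaled to the TMM-adjusted library total. Together they made up 3259.8, 3599.6, 3181 and 2130.4 CPM in the GSC1 tumours, always listed from replicate 1 to 4, and 2189, 1913 and 1369 CPM in the GSC2 tumours, from replicate 1 to 3. GSC1 replicate 4 lay under GSC2 replicate 1, so the summed levels of the lines overlapped. Per kilobase of the longest transcript, the scale used here for levels of different genes, Col18a1 stood first with a mean of 115 CPM per kilobase over the 7 tumours. Col3a1 (43.9), Col4a1 (43.7), Col1a2 (39.8), Col1a1 (36.3), Col8a1 (27.8) and Col4a2 (19.9 CPM per kilobase) came next. The ranges over the 7 tumours overlapped between all neighbours in that order. At the other end Col10a1, a marker of growth plate cartilage, Col24a1 and Col6a4 had too few reads to be tested.

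**Figure D1:**
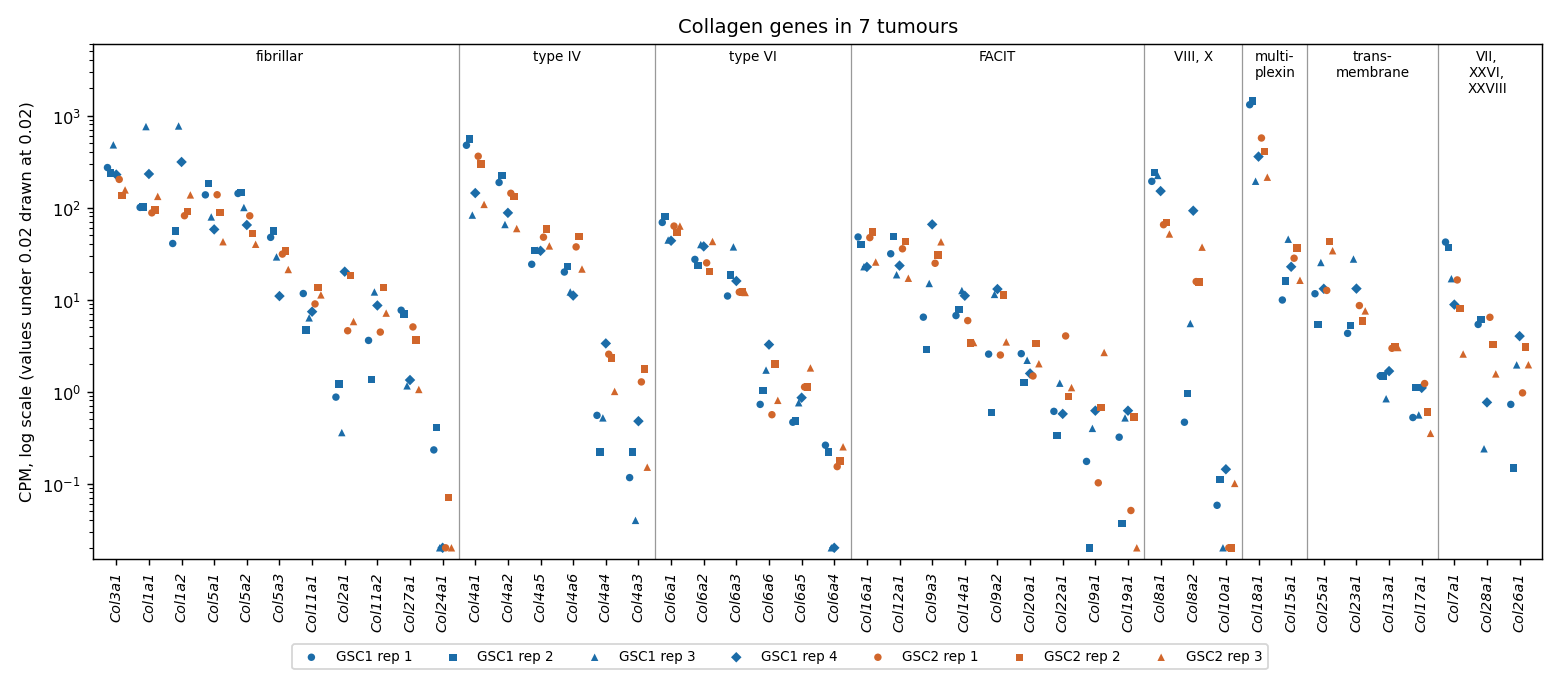
Level of all 44 collagen genes in each tumour, by structural class, in CPM on a log scale, 1 symbol per tumour (blue GSC1, orange GSC2) and with values under 0.02 CPM drawn at 0.02. Col18a1 reached 1434 CPM in GSC1 replicate 2, and Col8a1 had all 4 GSC1 tumours above all 3 GSC2 tumours.

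The libraries held between 18643155 and 32643408 reads on genes. In GSC1 replicates 3 and 4 and GSC2 replicate 3 reads on long transcripts were scarcer: the median log2 deviation of genes at or over 8000 bases, less the median of genes at or under 2000 bases, lay between -0.70 and -0.36, against 0.02 to 0.64 in the other libraries. These 3 are called the short-biased libraries below, and collagen transcripts are 2781 to 11511 bases long. A score over neuron and mature oligodendrocyte markers also varied, at 6.06, 4.78, 8.74 and 7.998 (mean log2 CPM) in GSC1 and 6.26, 7.82 and 7.65 in GSC2. It is called the brain score below and does not measure the amount of normal brain directly. Defining genes of neural stem cells were present in all tumours, with Sox2 between 70.7 and 199 CPM and Nes between 116 and 662 CPM. Trp53, Nf1 and Cdk4, which the line labels concern, were read in every tumour at 70.3 to 609 CPM. Gene totals that include host reads do not check the labels.

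**Figure D2:**
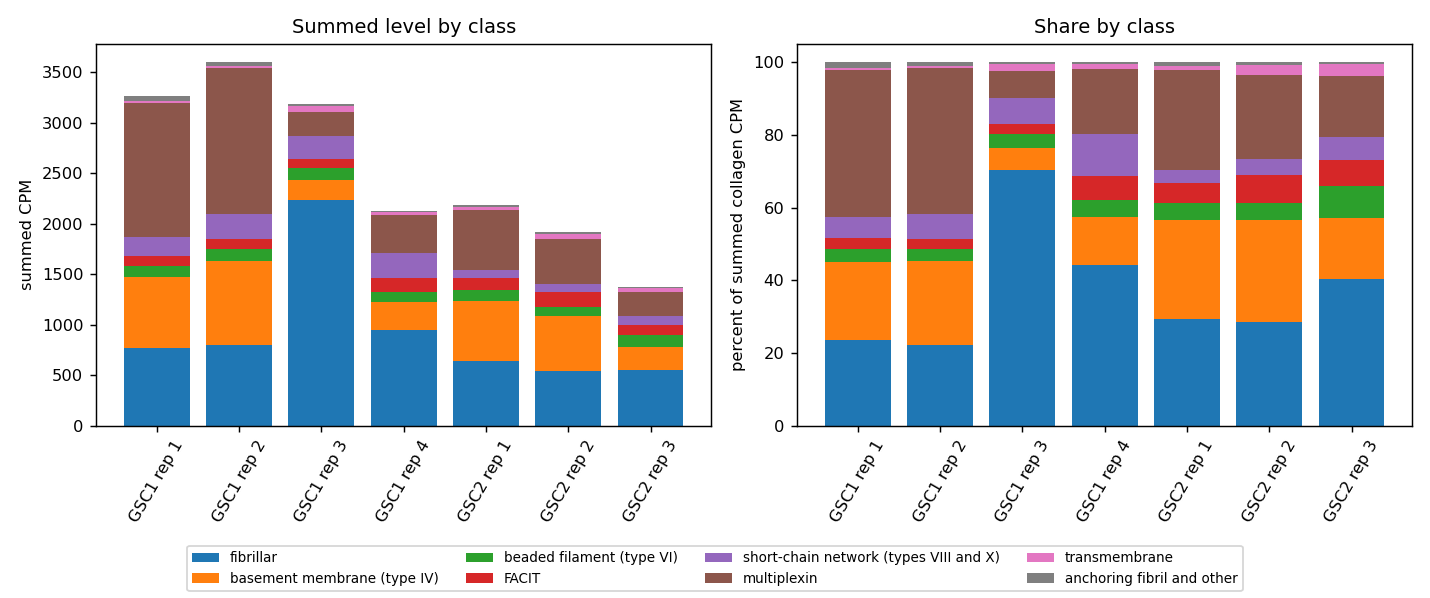
Summed CPM of each collagen class in each tumour (left) and the same as a percent of all collagen CPM (right). The fibrillar share was 70.3% in GSC1 replicate 3, and the multiplexin share was 40.5 and 40.3% in GSC1 replicates 1 and 2.

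The mix of collagens differed between tumours of the same line. In GSC1 replicates 1 and 2 the multiplexins, nearly all of it Col18a1, gave 40.5 and 40.3% of the collagen CPM and the fibrillar class 23.4 and 22.0%. In GSC1 replicate 3 this was turned around, with 7.497% from multiplexins and 70.3% from fibrillar genes, and GSC1 replicate 4 lay between with 17.9 and 44.3%. Both are short-biased libraries, and the part of that bias in the shares was not tested. The GSC2 tumours ranged from 16.8 to 27.3% for multiplexins and from 28.4 to 40.4% for fibrillar genes. Both ranges lie inside those of the GSC1 tumours. The share of the short-chain network class, 5.93, 6.70, 7.20 and 11.4% in GSC1 and 3.69, 4.39 and 6.48% in GSC2, overlapped as well. Its level did not overlap, with sums of 193, 241, 229 and 243 CPM in GSC1 and 80.7, 84.0 and 88.8 CPM in GSC2. Col8a1 made up most of this sum in every tumour, and Col8a2 overlapped between the lines.

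The comparison asked which collagen genes differ between GSC2 and GSC1 tumours. Of the 41 collagen genes tested, 0 reached an adjusted p under 0.05 in the quasi-likelihood test of edgeR, as did 0.0% of all 16068 genes tested. At an unadjusted p under 0.05 there were 7, or 17.1% of the members against 4.21% of all genes. Of these 3 had larger values in GSC2 (Col4a5, Col4a6 and Col13a1, beside 2.32% of all genes) and 4 in GSC1 (Col8a1, Col14a1, Col3a1 and Col5a2, beside 1.9%). The tumours of the lines did not overlap for 6 members (14.6%, against 5.58% of all genes), 3 with GSC2 above (3.05% of all genes) and 3 with GSC1 above (2.53%). Both shares are above their background, and no test of that excess was made. Without GSC2 replicate 2 only 2 members had an unadjusted p under 0.05 (3.09% of all genes), and without the 3 short-biased libraries 18 of 39 did, where 15.6% of all genes did. The count was 10 without GSC1 replicate 4 (4.44% of all genes), 11 in DESeq2 (6.68%), 13 with the brain score in the model (17.4%) and 13 with the length trend removed as well (19.6%). Log2 fold changes, given below as GSC2 minus GSC1, were positive for 20 and negative for 21 members, with a median of -0.12 beside -0.03 over all genes.

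**Figure D3:**
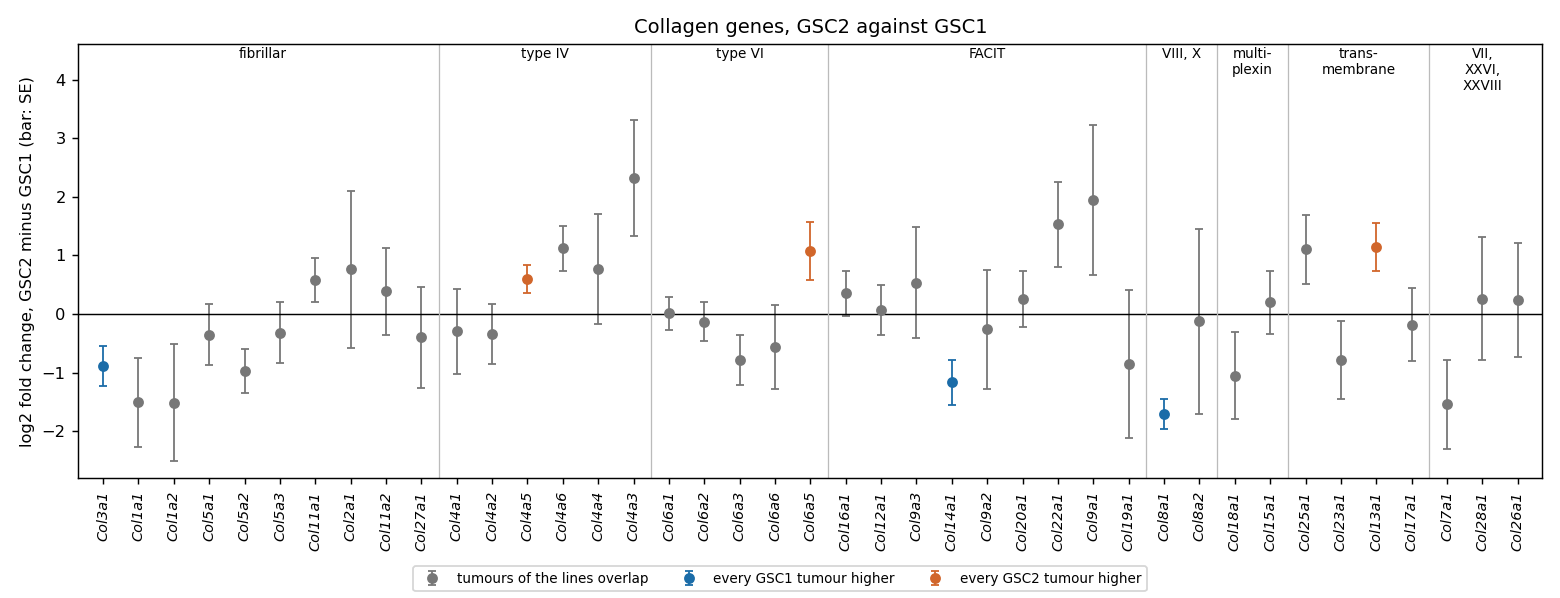
Log2 fold change, GSC2 minus GSC1, of the 41 collagen genes tested, by class, with the SE as bars. Blue marks genes with every GSC1 tumour above every GSC2 tumour, orange the reverse and grey overlap. No gene passed the adjusted threshold.

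Among network collagens, Col8a1 was the member that separated the lines best. It encodes the alpha 1 chain of type VIII collagen, a short chain of vessel walls and of Descemet's membrane of the cornea that forms hexagonal lattices. Col8a1 was at 193, 240.1, 223 and 151 CPM in GSC1, against 65.1, 68.6 and 51.6 CPM in GSC2. All GSC1 tumours lay above all GSC2 tumours, with a gap wider than the range within GSC2. The means were 202 ± 39.2 CPM (SD, n = 4) and 61.7 ± 8.98 CPM (SD, n = 3), and the log2 fold change was -1.71 (SE 0.25, edgeR adjusted p = 0.311, unadjusted 0.000174, rank 9 of all genes by p). Over all 18 alternatives its fold change stayed between -1.85 and -1.59 and its adjusted p between 4.87e-09 and 1.00. DESeq2 called it (adjusted p = 4.87e-09, 1.2% of all genes called), as did edgeR with the brain score in the model (adjusted p = 0.0203, 0.946% called) and with the length trend removed as well (adjusted p = 0.00659, 2.18% called). Limma-voom did not (adjusted p = 0.248, 0.00622% called). Of the 10 pericyte and smooth muscle markers, 3 had an unadjusted p under 0.05, all with larger values in GSC1 (30%, beside 1.9% of all genes), and 0 passed. Pdgfrb, the pericyte receptor gene among them, was at 56.4, 53.7, 69.5 and 41.3 CPM in GSC1 against 21.3, 38.3 and 28.6 CPM in GSC2, without overlap, a log2 fold change of -0.91 (SE 0.29, edgeR adjusted p = 0.955). Acta2 and Tagln, the others of the 3, overlapped between the lines and were highest in GSC1 replicate 3 (132 and 291 CPM). By direction, 6 of the 10 markers had negative fold changes and 4 positive ones: Notch3, Kcnj8, Abcc9 and Myh11. The part of mural cells in the Col8a1 values, and in those of Col3a1 below, was not tested.

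Col8a2, the gene of the partner chain alpha 2(VIII), had another distribution. It was at 0.464, 0.956, 5.48 and 92.4 CPM in GSC1 and at 15.7, 15.4 and 37.1 CPM in GSC2. GSC1 replicate 4 was highest of all tumours and GSC1 replicates 1 to 3 were lowest, so the lines overlapped through 1 tumour. The edgeR log2 fold change was -0.12 (SE 1.58, adjusted p = 1.00), but it was 3.29 without GSC1 replicate 4 and 2.61 in limma-voom. It was 4.46 without the 3 short-biased libraries, GSC1 replicate 4 among them. Replicates 1 and 2 of each line remained, and Col8a2 was called there (edgeR adjusted p = 0.0323, 0.348% of all genes called). Col8a1 reads exceeded Col8a2 reads 416-fold in GSC1 replicate 1 and 1.39-fold in GSC2 replicate 3. Summed CPM of 8 choroid plexus markers, all of them tested, was 5.77, 3.90, 41.7 and 9042 in GSC1 and 2149, 2881 and 5031 in GSC2. Most of that sum was Ttr, at 8165 CPM in GSC1 replicate 4 and 2026, 2650 and 4579 CPM in GSC2. Each of the 8 markers was higher in GSC1 replicate 4 and the GSC2 tumours than in GSC1 replicates 1 to 3. Sostdc1 was highest in GSC2 replicate 3 (57.8 CPM) and the others in GSC1 replicate 4. The 4 tumours highest in these markers were also the 4 highest in Col8a2, and the part of such tissue in the Col8a2 values was not tested. Slc4a5, Folr1 and Kcne2 of that list each had 0 reads in at least 1 tumour.

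The promoter windows of the Col8 partners are shown because these chains share a trimer family and did not share a pattern. Windows run from 250 bases before to 50 bases after the RefSeq start (GRCm38.p6). That build is later than the mm9 named for the counts, and no position was carried between them. Capitals mark matches on either strand to the TATA box letters TATAAA, the CAAT box letters CCAAT, the GC box core GGGCGG or the AP-1 site TGANTCA, and matches may overlap. The Col8a1 window lies at chr16:57754688-57754987 on the minus strand and the Col8a2 window at chr4:126286544-126286843 on the plus strand.
Col8a1: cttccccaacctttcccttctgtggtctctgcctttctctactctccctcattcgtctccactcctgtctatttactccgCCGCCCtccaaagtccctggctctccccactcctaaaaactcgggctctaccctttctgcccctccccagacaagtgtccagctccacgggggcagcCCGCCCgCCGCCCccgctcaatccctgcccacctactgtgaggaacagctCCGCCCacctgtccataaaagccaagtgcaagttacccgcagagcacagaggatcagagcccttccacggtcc
Col8a2: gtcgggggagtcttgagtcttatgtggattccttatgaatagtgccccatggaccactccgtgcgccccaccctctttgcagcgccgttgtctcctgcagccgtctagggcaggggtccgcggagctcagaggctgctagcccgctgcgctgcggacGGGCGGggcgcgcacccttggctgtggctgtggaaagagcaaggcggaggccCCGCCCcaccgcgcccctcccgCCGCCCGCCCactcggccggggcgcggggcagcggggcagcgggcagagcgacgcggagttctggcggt
Each holds 4 matches to GGGCGG, the core of a GC box, and none to the other 3 motifs. GGGCGG was found in 35.7% of all 32851 windows of this length and in 23 of 38 collagen windows (60.5%), which cover 35 of the 44 genes. Collagen windows had a median GC content of 59.8%, against 52.7% in all windows, and the letters say nothing of which factor binds.

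Fibrillar collagens had smaller values in GSC2 for 7 of the 10 genes tested, with a median log2 fold change of -0.38. Col3a1, the homotrimeric type III chain of vessel walls and soft tissue, was at 272, 237, 480.3 and 228 CPM in GSC1 and at 202, 135 and 155 CPM in GSC2. The lines did not overlap, although GSC1 replicate 4 and GSC2 replicate 1 lay close together (a log2 fold change of -0.89, SE 0.33, edgeR adjusted p = 1.00). Col5a2, a chain of type V collagen, which starts the assembly of type I fibrils, was at 142, 146, 100.1 and 64.6 CPM against 81.3, 52.4 and 39.9 CPM (-0.97, SE 0.38). Here GSC1 replicate 4 lay inside the GSC2 range. Its partner Col5a1 had means of 114 ± 56.9 CPM (SD, n = 4) for GSC1 and 89.5 ± 47.7 CPM (SD, n = 3) for GSC2, a difference smaller than the spread within either line.

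Type I collagen, the main protein of bone, tendon and scar, was uneven within GSC1. Col1a1 was at 100.4, 102, 759 and 232 CPM in GSC1 and at 87.6, 94.4 and 132 CPM in GSC2. Col1a2 was at 40.7, 55.3, 770.0 and 313 CPM in GSC1 and at 81.5, 90.8 and 137 CPM in GSC2. GSC1 replicate 3 exceeded every other tumour for both chains, and GSC1 replicates 1 and 2 were the lowest for Col1a2. Neither gene passed (a log2 fold change of -1.51, SE 0.76 for Col1a1 and -1.51, SE 1.00 for Col1a2). The Col1a2 fold change turned to 0.85 when the short-biased libraries, GSC1 replicate 3 among them, were left out, and that of Col1a1 came to -0.16.

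The ratio of the type I chains also set 2 tumours apart. Col1a1 CPM over Col1a2 CPM was 2.47 and 1.84 in GSC1 replicates 1 and 2, and 0.985, 0.740, 1.07, 1.04 and 0.964 in the other tumours. Their transcripts have nearly equal lengths, 5930 and 5348 bases. The same GSC1 replicates 1 and 2 had the lowest brain scores, and whether that bears on the ratio was not tested. Col3a1 CPM over Col1a1 CPM ran from 0.633 in GSC1 replicate 3 to 2.71 in GSC1 replicate 1.

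**Figure D4:**
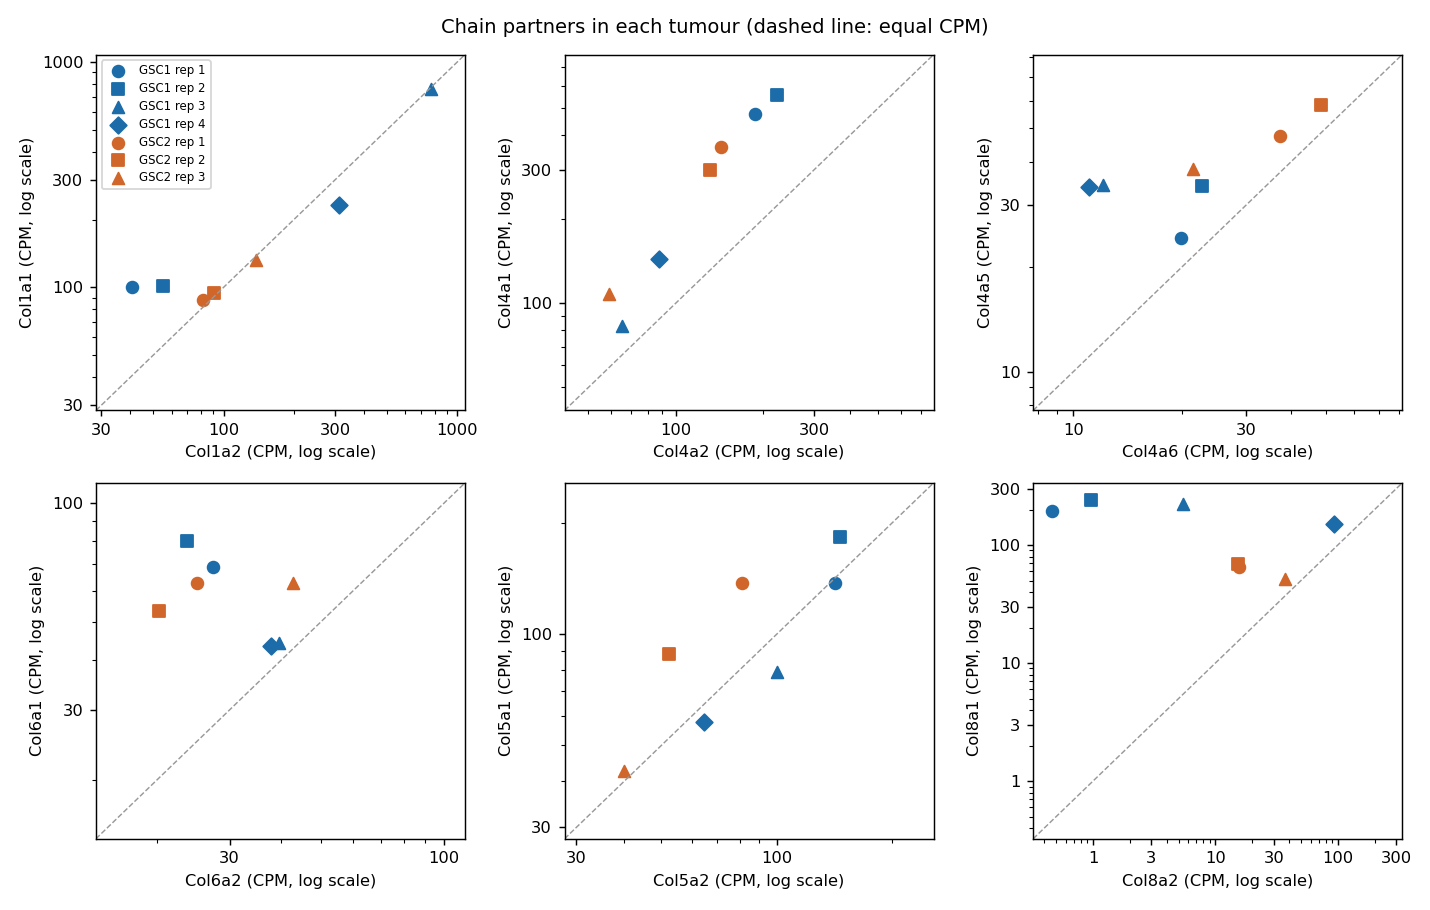
CPM of chain partners plotted against each other on log scales, 1 symbol per tumour and a dashed line at equal CPM. GSC1 replicates 1 and 2 leave the line for type I (ratios of 2.47 and 1.84), type IV partners keep to 1 side of it, and type VIII partners show no common course.

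Summed markers of mural cells and fibroblasts were highest in GSC1 replicates 3 and 4, the tumours with most type I collagen. The 10 pericyte and smooth muscle markers summed to 230, 250.03, 803 and 450.4 CPM in GSC1 and to 191, 317 and 239 CPM in GSC2, with GSC1 replicate 3 first. The 10 fibroblast markers, of which Dpt was at 0 in at least 1 tumour, summed to 146, 137, 659 and 1037 CPM in GSC1 and 229.9, 458 and 369.9 CPM in GSC2. In GSC1 replicate 4 Igf2 alone was at 550 CPM. Igf2 (157 CPM) and Fbln1 (55.8 CPM) in GSC1 replicate 3 lay under the highest GSC2 tumour (183 and 59.9 CPM). Pdgfra was highest in GSC2 replicate 2 (92.8 CPM), and the other fibroblast markers were highest in GSC1 replicates 3 and 4. The mural markers did not share one order. In GSC1 replicate 3 Tagln (291 CPM) and Acta2 (132 CPM), both genes of smooth muscle contraction, made up most of the sum, while Anpep was lowest there (7.63 CPM) and Notch3, Abcc9 and Myh11 were highest in GSC2 replicate 2 (64.7, 14.6 and 3.79 CPM). The 10 endothelial markers moved less, from 252 to 415 CPM. The part of these cells in the type I values was not tested.

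**Figure D5:**
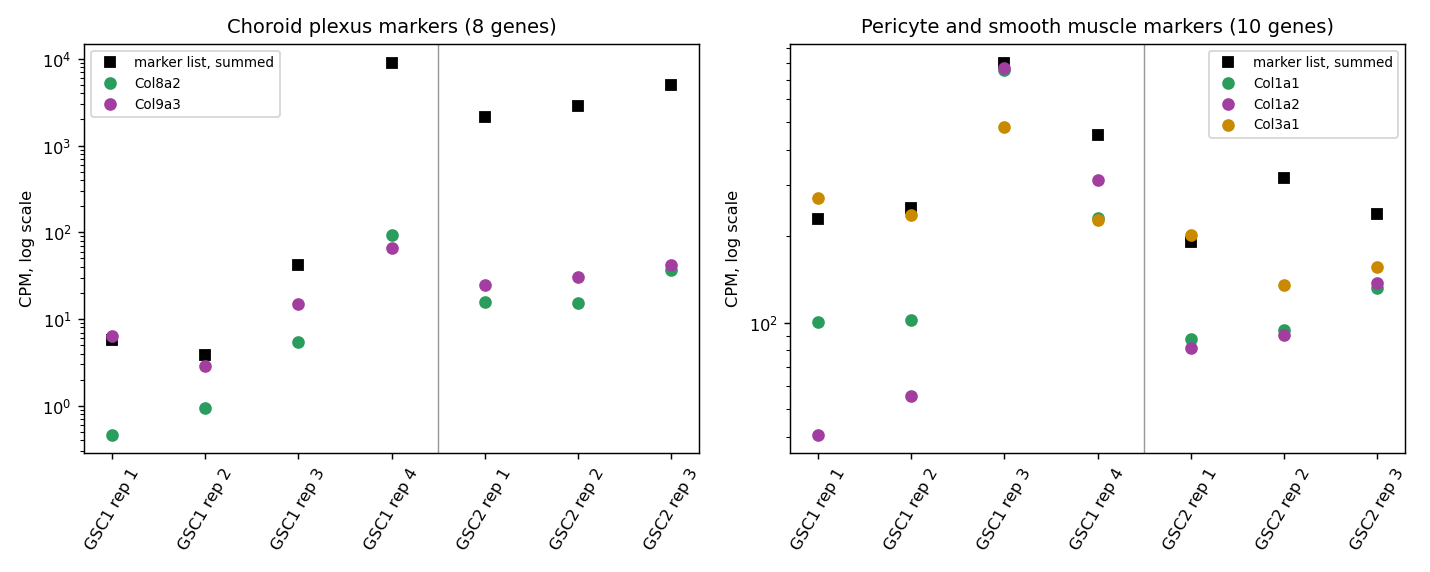
Left, summed CPM of 8 choroid plexus markers (squares) with Col8a2 and Col9a3 (circles). Right, summed CPM of 10 pericyte and smooth muscle markers (squares) with Col1a1, Col1a2 and Col3a1 (circles), all on log scales by tumour, with a line between GSC1 and GSC2. Col8a2 peaked at 92.4 CPM in GSC1 replicate 4 and Col1a2 at 770.0 CPM in GSC1 replicate 3, as did the summed markers beside them.

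The remaining fibrillar genes were scarcer. Col5a3 was at 10.9 to 55.7 CPM, and Col11a1, whose chain sets fibril width in cartilage, at 4.67 to 13.4 CPM. Col2a1, the main cartilage collagen, was at 20.1 CPM in GSC1 replicate 4 and 18.2 CPM in GSC2 replicate 2 and at 0.358 to 5.76 CPM in the rest. Col11a2 ranged from 1.36 to 13.5 CPM and Col27a1 from 1.05 to 7.65 CPM. Col24a1 had 0 to 11 reads a library, and a count of 0 allows up to 0.0869 to 0.153 CPM, by library and for counting error only.

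Of the 6 type IV genes, 4 had positive and 2 negative fold changes, split by chain pair. Col4a1 and Col4a2 form the common heterotrimer of vessel basement membranes. Col4a1 was at 475, 553, 82.8 and 144 CPM in GSC1 and at 361, 299 and 108 CPM in GSC2, and Col4a2 at 187, 224, 65.4 and 87.6 against 143, 131 and 59.1 CPM. The order of tumours was nearly the same for both genes, with the 3 short-biased libraries lowest and GSC1 replicates 1 and 2 highest. Fold changes were -0.29 (SE 0.72) and -0.34 (SE 0.51), and that of Col4a1 was 0.29 when the brain score was a covariate. Col4a1 over Col4a2 CPM was 2.28 to 2.54 in the 4 other libraries and 1.27 to 1.83 in the short-biased ones. The summed endothelial markers were at 325, 376, 396 and 415 CPM in GSC1 and 252, 371 and 264 CPM in GSC2. Flt1 had the highest mean CPM of them but not the highest CPM per kilobase (14.6, against 44.2 for Cldn5). It was at 134, 199, 55.4 and 73.2 CPM against 83.3, 114 and 44.8 CPM, lowest in the same 3 libraries as Col4a1 and Col4a2. Most other endothelial markers did not share that order. Cldn5, Pecam1, Cdh5, Esam, Tie1, Slco1a4 and Ly6c1 were highest in GSC1 replicates 3 and 4, with Cldn5 at 58.5, 43.2, 89.2 and 84.9 CPM in GSC1. Kdr and Tek took neither order. The part of vessel cells and of transcript length in these values was not tested.

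The windows of Col4a1 and Col4a2 are printed because these genes, with nearly the same order of tumours, are read in opposite directions from a common promoter. The Col4a1 window lies at chr8:11312777-11313076 on the minus strand and the Col4a2 window at chr8:11312555-11312854 on the plus strand (GRCm38.p6). Capitals mark the motifs named above.
Col4a1: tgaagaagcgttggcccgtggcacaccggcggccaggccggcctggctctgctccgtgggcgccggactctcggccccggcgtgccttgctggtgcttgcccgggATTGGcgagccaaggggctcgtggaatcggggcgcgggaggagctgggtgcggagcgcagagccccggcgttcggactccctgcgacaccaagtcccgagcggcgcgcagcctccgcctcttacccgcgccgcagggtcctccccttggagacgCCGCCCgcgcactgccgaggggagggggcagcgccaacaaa
Col4a2: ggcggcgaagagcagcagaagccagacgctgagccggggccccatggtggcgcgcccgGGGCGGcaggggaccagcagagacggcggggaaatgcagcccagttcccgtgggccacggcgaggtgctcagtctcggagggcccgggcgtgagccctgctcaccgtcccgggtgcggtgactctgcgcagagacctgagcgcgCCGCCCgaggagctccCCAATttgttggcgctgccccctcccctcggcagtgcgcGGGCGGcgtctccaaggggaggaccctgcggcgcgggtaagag
The RefSeq starts lie 21 bases apart and the windows share 78 bases, from 11312777 to 11312854. A GGGCGG match in that stretch is present in both windows. Each window also has 1 CCAAT match of its own, a motif found in 37.4% of all windows. Without a known strand setting, reads where such genes meet cannot be assigned to one or the other.

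Col4a5 and Col4a6, the X-linked chains of smooth muscle and epithelial basement membranes, had larger values in GSC2. Col4a5 was at 24.2, 34.1, 34.3 and 33.9 CPM in GSC1 and at 47.6, 58.1 and 38.2 CPM in GSC2, without overlap (a log2 fold change of 0.60, SE 0.24, edgeR adjusted p = 1.00). Col4a6 was at 19.9, 22.7, 12.1 and 11.05 CPM in GSC1 and at 37.3, 48.5 and 21.5 CPM in GSC2, with GSC2 replicate 3 just under GSC1 replicate 2 (1.12, SE 0.38, adjusted p = 1.00). With the length trend removed and the brain score in the model, Col4a6 was called (1.06, SE 0.21, edgeR adjusted p = 0.0420), and with neither or only 1 of these steps it was not. Their RefSeq starts lie 1343 bases apart, in opposite directions as for the first pair. Col4a3 and Col4a4, chains of the kidney filter membrane, were rare, at 0.0397 to 1.75 CPM and 0.221 to 3.33 CPM.

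Type VI collagen, a beaded filament that links cells to the matrix around them, differed little in sum, at 101 to 124 CPM in GSC1 and 89.0 to 120.5 CPM in GSC2. Col6a1 was at 68.9, 80.2, 44.3 and 43.6 CPM in GSC1 and at 62.9, 53.4 and 62.9 CPM in GSC2 (a log2 fold change of 0.01, SE 0.28). Col6a2 was at 27.3, 23.6, 39.6 and 37.8 against 25.0, 20.2 and 42.8 CPM (-0.13, SE 0.34). Their CPM ratio ran from 1.12 in GSC1 replicate 3 to 3.40 in GSC1 replicate 2. It was 1.12 to 1.47 in the short-biased libraries and 2.51 to 3.40 in the others. Col6a3, the long chain from which endotrophin is cut, was at 10.9, 18.5, 37.3 and 15.9 CPM in GSC1 and at 12.1, 12.1 and 11.9 CPM in GSC2 (-0.78, SE 0.43), with GSC1 replicate 3 again highest. Col6a5 did not overlap, at 0.464 to 0.857 CPM in GSC1 and 1.12 to 1.80 CPM in GSC2 (1.08, SE 0.49), a level of 13 to 36 reads a library. Col6a6 was at 0.560 to 3.24 CPM.

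The FACIT collagens, which sit on the surface of fibrils, included 1 gene of 9 that separated the lines (11.1%, beside 5.58% of all genes). Col14a1, a chain that binds type I fibrils, was at 6.69, 7.76, 12.5 and 10.998 CPM in GSC1 and at 5.90, 3.37 and 3.41 CPM in GSC2 (a log2 fold change of -1.17, SE 0.38, edgeR adjusted p = 0.961). Col16a1 was at 47.8, 39.5, 22.7 and 22.6 against 47.1, 54.3 and 25.6 CPM (0.35, SE 0.39). Col12a1, a long chain of strained tissue, was at 31.4, 48.2, 18.6 and 23.4 against 35.6, 42.8 and 17.04 CPM (0.07, SE 0.43). In both of these the short-biased libraries were the 3 lowest.

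Col9a3, a chain of type IX collagen of cartilage, was, like Col8a2, highest in GSC1 replicate 4 and lowest in GSC1 replicates 1 and 2. It was at 6.43, 2.87, 14.9 and 65.6 CPM in GSC1 and at 24.8, 30.4 and 42.4 CPM in GSC2 (a log2 fold change of 0.54, SE 0.95). GSC1 replicate 2 was lowest, as in the summed choroid plexus markers, whereas Col8a2 was lowest in GSC1 replicate 1. The part of that tissue was not tested. The partner Col9a2 shared the highest and lowest tumours of Col9a3 but not the order between them. It was at 2.55, 0.588, 11.4 and 13.0 CPM in GSC1 and at 2.49, 11.2 and 3.46 CPM in GSC2. Col9a1 had 0 to 53 reads a library, 53 of them in GSC2 replicate 3. Col9a3 over Col9a2 CPM ran from 1.31 to 12.3. Col20a1 (1.25 to 3.33 CPM), Col22a1 (0.331 to 4.02 CPM) and Col19a1 (at most 0.619 CPM) made up the rest.

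Multiplexins carry breaks in their helix and are processed to fragments that act on vessels. Col18a1, whose chain gives rise to endostatin, was at 1312, 1434, 193 and 358 CPM in GSC1 and at 570.3, 406 and 214 CPM in GSC2. It was the leading collagen by CPM in 6 of 7 tumours and the fifth in GSC1 replicate 3, where type I chains led. The 3 short-biased libraries were the lowest for Col18a1, and the part of transcript length in its values was not tested. Within GSC1 the highest tumour was 7.42 times the lowest, more than the difference between the lines (a log2 fold change of -1.06, SE 0.74, edgeR adjusted p = 1.00). Col15a1, its close relative, took another order, at 9.88, 15.9, 45.3 and 22.7 CPM in GSC1 and 28.1, 36.3 and 16.2 CPM in GSC2 (0.20, SE 0.54). Col18a1 over Col15a1 CPM was 133 and 90.3 in GSC1 replicates 1 and 2 and 4.27 to 20.3 elsewhere.

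Among transmembrane collagens Col13a1, found at cell contacts and neuromuscular junctions, separated the lines at a low level. It was at 1.48, 1.47, 0.835 and 1.67 CPM in GSC1 and at 2.95, 3.09 and 3.01 CPM in GSC2 (a log2 fold change of 1.14, SE 0.40, edgeR adjusted p = 1.00). Col25a1, a neuronal collagen that binds amyloid, was at 11.6, 5.37, 25.3 and 13.1 against 12.6, 42.5 and 33.9 CPM (1.10, SE 0.58). GSC2 replicate 1 lay inside the GSC1 range. Col23a1 was highest in GSC1 replicate 3, at 4.29, 5.26, 27.5 and 13.1 against 8.60, 5.86 and 7.52 CPM (-0.78, SE 0.67), and its fold change was 0.59 without the short-biased libraries. Col17a1, of skin hemidesmosomes, was at 0.351 to 1.22 CPM.

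Col7a1, the anchoring fibril chain of skin, was at 42.1, 36.6, 16.9 and 8.81 CPM in GSC1 and at 16.3, 7.96 and 2.56 CPM in GSC2 (a log2 fold change of -1.54, SE 0.75, edgeR adjusted p = 1.00). Within each line the short-biased libraries were lowest, and in GSC1 these are also the tumours with the highest brain scores. The part of either in the Col7a1 values was not tested. Col28a1 was at 5.36, 6.07, 0.238 and 0.762 against 6.41, 3.23 and 1.55 CPM (0.26, SE 1.05), again with short-biased libraries lowest within each line. Col26a1 was at 0.724, 0.147, 1.95 and 4.00 against 0.967, 3.05 and 1.95 CPM (0.23, SE 0.97).

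The enzymes and chaperones that build collagen showed no common direction, with 10 positive and 9 negative fold changes among 19 tested and 0 passing. Fkbp10, a chaperone needed for cross-linking of type I collagen, was at 20.2, 17.8, 25.8 and 26.3 CPM in GSC1 and at 51.3, 43.4 and 59.6 CPM in GSC2 (a log2 fold change of 1.19, SE 0.24, edgeR adjusted p = 0.437). It was the 1 gene of these 19 without overlap between the lines (5.26%, beside 5.58% of all genes). The prolyl hydroxylase genes P4ha1 (-0.78, SE 0.39) and P4ha2 (-0.70, SE 0.35) had larger means in GSC1, and P3h3 (0.69, SE 0.38) in GSC2, all with overlap. Of the 13 genes for cross-linking and propeptide removal, 10 had negative fold changes, with a median of -0.73 and 0 passing. Loxl3, a lysyl oxidase relative, was at 44.05, 47.4, 51.5 and 34.2 CPM in GSC1 and at 15.1, 19.4 and 21.6 CPM in GSC2 without overlap (-1.24, SE 0.25, edgeR adjusted p = 0.436). No other of the 13 lacked overlap (1 gene, 7.69%). Lox itself was at 8.61, 7.65, 106 and 36.2 against 11.1, 7.36 and 16.9 CPM and Loxl2 at 17.1, 26.8, 92.1 and 38.0 against 13.8, 15.1 and 18.4 CPM. Both peaked in GSC1 replicate 3, the tumour with most type I collagen. The protease gene Tll1 was at 0.407 to 7.81 CPM.

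Collagen receptors were evenly divided, 5 positive and 5 negative among 10 tested, with 0 passing. Lair1, an inhibitory receptor of immune cells, was at 16.5, 8.68, 10.7 and 10.9 CPM in GSC1 and 23.7, 15.99 and 21.9 CPM in GSC2 (a log2 fold change of 0.81, SE 0.30). GSC2 replicate 2 lay just under GSC1 replicate 1 for Lair1, so the lines overlapped. The integrin chain gene Itgb1 (-0.46, SE 0.41), the discoidin domain receptor gene Ddr1 (0.32, SE 0.33) and the uptake receptor gene Mrc2 (-0.36, SE 0.37) overlapped between the lines. Of 12 genes tested for proteins that bind collagen, 8 had negative fold changes and 0 passed. Fbln2, a basement membrane and elastic fibre gene, was at 933, 1156, 211 and 183 CPM in GSC1 and at 90.5, 172 and 109 CPM in GSC2, without overlap (-2.33, SE 0.75, edgeR adjusted p = 0.961). No other of the 12 lacked overlap (1 gene, 8.33%, beside 5.58% of all genes). The fibril-binding genes Bgn, at 33.3, 34.2, 207 and 109 against 34.9, 46.6 and 51.6 CPM, and Fmod, at 1.85, 2.61, 17.2 and 70.0 against 3.00, 5.75 and 6.32 CPM, were highest in GSC1 replicates 3 and 4. Tgfbi had means of 99.9 ± 39.3 CPM (SD, n = 4) for GSC1 and 62.6 ± 10.6 CPM (SD, n = 3) for GSC2 (-0.67, SE 0.35).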

How the data were processed

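Total RNA of 7 tumours was sequenced, and the authors deposited raw read counts per Ensembl gene, whose making involved HTSeq and TopHat2 2.0.11 (per the submitters' processing notes). How strand was set is not given in the sources used here. Therefore overlapping and antisense genes are uncertain. The notes name mm9 and dm3 without a role. Each table held 37620 genes and 5 summary lines, which were left out. Libraries held 18643155 to 32643408 counts on genes, with 6.19 to 14.2% of listed reads on no gene. Symbols came from a table of gene IDs and names, which held 32897 of the 37620 IDs, transcript lengths (longest transcript) from GENCODE M21 and promoter windows from RefSeq GRCm38.p6, used for names, lengths and sequence only.

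GSC2 was compared with GSC1 in edgeR 4.0.16 (R 4.3.3): TMM, filterByExpr (16068 genes), robust quasi-likelihood test, Benjamini-Hochberg over all genes, threshold 0.05. A length trend was a loess fit per library (span 0.5) on log2 CPM with a prior count of 2, and lengths were known for 97.2% of genes. On simulated counts for 16068 genes the test of GSC2 against GSC1 recovered 0, 28, 66 and 86% of 50 genes each changed 2, 4, 8 and 16-fold, with 4 false calls. Alternatives also used DESeq2 1.42.0 and limma 3.58.1. The named genes were the 3 most abundant per class with a mean of at least 1 CPM, members without overlap, with an unadjusted p under 0.05 or called in any alternative, and up to 4 genes per other list by smallest p. Single marker genes, Col5a1 and other members given by range fall outside it. Members, lists and rule were chosen with earlier results of these data known.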

Additional observations from a re-analysis of the deposited data

Results flagged for a closer look

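Among the 4 GSC1 tumours 1 value stood apart from the other 3 by Dixon's criterion in 8 of 86 measures: 4 of the 44 collagen genes and 4 of 42 chain ratios, class sums, class shares and list sums. Chance alone marks about 1 in 20 groups, and many of these measures share genes. GSC1 replicate 4 was the highest for Col8a2 at 92.4 CPM, for Col2a1 at 20.1 CPM, for Col4a4 at 3.33 CPM, for the FACIT share of collagen CPM at 6.52% and for the summed choroid plexus markers at 9042 CPM. GSC1 replicate 3 was the highest for the summed fibrillar collagens at 2237 CPM. GSC1 replicate 1 was the lowest for Col4a5 at 24.2 CPM, with the other 3 between 33.9 and 34.3 CPM. GSC1 replicate 2 had the highest ratio of Col4a3 to Col4a4, 1.00, which rests on 6 reads of each gene.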

How the results depend on the processing

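DESeq2, limma-voom, 2 other scalings, 2 other filters, the brain score as a covariate, a length offset, both together, a replicate block and leaving out libraries were tried, and the cause of each change below was not tested. An alternative with protein chain lengths was not run. The count of collagen genes passing, 0, became 1 in DESeq2 (1.2% of all genes called) and 1 with the brain score (0.946%). It was 2 with the length offset and brain score (2.18%) and 1 without the 3 short-biased libraries (0.348%). It was 0 in every leave-one-out fit. The 7 with an unadjusted p under 0.05 (4.21% of all genes) became 11 in DESeq2 (6.68%) and 13 with the brain score (17.4%). There were 13 with both corrections (19.6%) and 18 without the 3 libraries (15.6%). Leaving out single tumours gave 2 (without GSC2 replicate 2, 3.09%) to 10 (without GSC1 replicate 4, 4.44%). The median log2 fold change of -0.12 became 0.23 with the brain score and 0.33 without the 3 libraries, and -0.15 to 0.06 leaving out single tumours. Of the 26 named genes 16 kept their direction throughout and 10 reversed in 43 of 464 gene-by-alternative fits. Of those 16, 8 moved by over 1.5 times: Col9a3 ran from 0.17 to 2.55, Col18a1 from -1.50 to -0.42, Col4a2 from -0.61 to -0.03, Col1a1 from -1.80 to -0.16, Col6a3 from -0.99 to -0.29, Col14a1 from -1.48 to -0.65, Col16a1 from 0.13 to 0.61 and Col25a1 from 0.75 to 1.70. Without the 3 libraries the log2 fold change was 0.85 for Col1a2, 0.59 for Col23a1, -0.26 for Col28a1, -0.019 for Col12a1, -0.36 for Col6a1 and 4.46 for Col8a2. With the brain score it was 0.29 for Col4a1 and 0.78 for Col8a2, with both corrections 0.058 for Col4a1, 0.75 for Col8a2 and -0.093 for Col12a1, and with the length offset -0.18 for Col12a1 and -0.083 for Col6a1. Col6a1, at 0.01, was also -0.020 with RLE factors, -0.019 without a filter, -0.0013 at a mean of at least 5 CPM and -0.020 in DESeq2, and Col8a2 was 2.61 in limma-voom. Leaving out single tumours gave -0.64 to 0.13 for Col4a1 (reversed without GSC1 replicate 2 or GSC2 replicate 3), -0.14 to 0.19 for Col6a1 (4 tumours), -0.51 to 0.081 for Col6a2 (GSC2 replicate 2), -0.67 to 3.29 for Col8a2 (GSC1 replicate 4, GSC2 replicates 1 and 2), -0.21 to 0.38 for Col12a1 (4 tumours), -0.077 to 0.70 for Col15a1 (GSC1 replicate 1, GSC2 replicate 2), -0.21 to 1.07 for Col26a1 (3 tumours) and -0.38 to 0.80 for Col28a1 (3 tumours).

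The labels do not say whether the replicate numbers pair the tumours. Deviations from the line means correlated at 0.58, -0.31 and 0.41 for same-numbered tumours. The closest GSC1 tumours to GSC2 replicates 1, 2 and 3 were replicates 2, 3 and 3, so these correlations cannot settle the question. With the replicate block 0 collagen genes passed and 11 had an unadjusted p under 0.05 (5.13% of all genes), with -0.039 for Col12a1, -0.073 for Col6a1 and 3.89 for Col8a2. GSC1 replicate 4 has no partner and adds nothing there. Genes under about 1 CPM rest on few reads. On simulated counts 28% of genes changed 4-fold and 66% of genes changed 8-fold were recovered, so changes of that size can be missed.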
